A study of Rattus norvegicus with 448 samples.

Results

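Livers of outbred rats were compared by their own level of Col1a1, the gene for the alpha-1 chain of type I collagen. The 80 livers with the most Col1a1 RNA were set against the 80 with the least, each 20.4% of the livers kept. Of 430 libraries matched to a column of the deposited table, 38 were set aside because they had fewer than 15000 genes above 0. The livers were chosen by their measured Col1a1 level (ENSRNOG00000003897), which served to sort them and was left out of every result. The rats were 17 weeks old and all libraries share 1 group: snap-frozen liver, total RNA, 37 bp paired-end reads, with no sex, diet, treatment, genotype or batch given in the labels. The study mapped loci for metabolic traits in this population and asked which genes near them may act on the traits. High and low livers are thus not groups of the study: they were made from a measured value, and the labels give no treatment that separates them. The labels do not say that each library is a separate animal, so the p-values below measure the spread between these libraries.

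Type I collagen is the main fibrillar collagen of the liver's connective tissue. In healthy liver it is made at a low rate, mostly by fibroblasts around the portal tracts and vessels and by hepatic stellate cells, which store vitamin A in the space between sinusoid and hepatocyte. On activation, for which transforming growth factor beta is the best-known signal, stellate cells become contractile myofibroblasts and make far more of it together with other matrix proteins, the process behind liver fibrosis. In RNA of whole liver, more collagen-making cells and more collagen RNA per cell cannot be told apart.

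The table gives genes by Ensembl identifier, and no source used here pairs these identifiers with gene names (0 of 16796 matched). Markers of stellate cells, fibroblasts, bile ducts or blood cells could therefore not be looked up, and the label of the comparison could not be checked against them. Genes are described below by number and level, and 4 are given by identifier, each chosen after its values were seen as the extreme of a ranking.

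Col1a1 formed a continuous range with no gap at either bound of the groups. It was 1.35 ± 0.297 FPKM (a level per length of gene and per library size; SD, n = 80) in the low livers, with a lowest value of 0.789, a median of 1.39 and a highest of 1.79. The high livers had 4.34 ± 0.946 FPKM (SD, n = 80), with a lowest value of 3.55, a median of 3.9 and a highest of 7.81. The livers in between, 59.2% of those kept and called middle livers here, had a median of 2.5. At the lower bound, the last low liver had 1.786 FPKM and the next liver 1.79, and at the upper bound the last liver outside the high group had 3.544 and the first inside it 3.547. The livers just inside and just outside each bound were thus nearly the same in Col1a1, and these values are the choice itself, not a result.

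**Figure D1:**
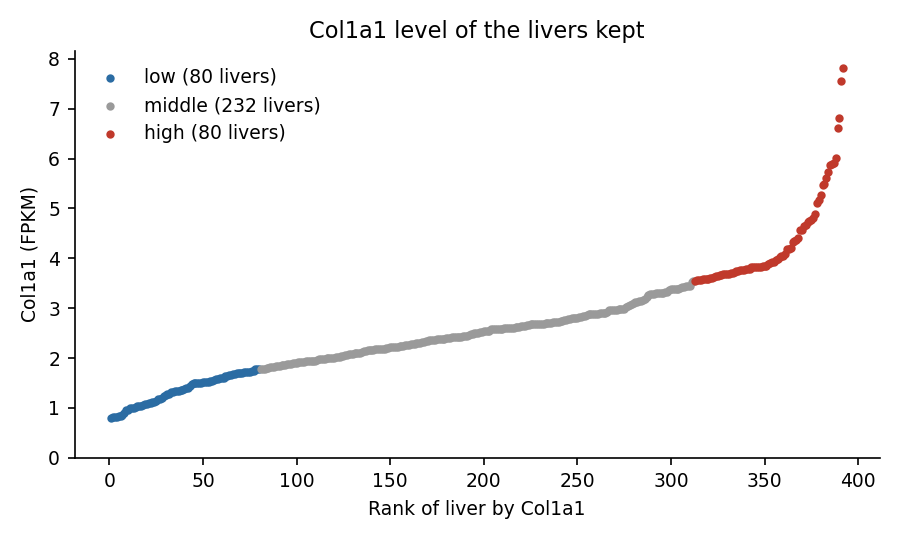
Col1a1 in FPKM (vertical axis) for each liver kept in order of rank (horizontal axis), coloured by class. The curve has no step at the bounds of the low (up to 1.79 FPKM) and high (from 3.55 FPKM) livers, and it steepens toward the highest value of 7.81.

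The libraries of the high livers also held more detected genes. Genes above 0 had a median of 16004.5 in the high livers (range 15527 to 16594) and of 15715 in the low livers (15025 to 16613), and the groups overlapped over most of this range. Depth, recovered from what 1 read is worth in each library and given relative to the median library, had a median of 1.03 in the high livers (0.638 to 2.35) and of 0.925 in the low ones (0.441 to 2.72). The first principal component of the 160 livers held 39.8% of the variance, with a median score of 13.24 in the high livers and -9.26 in the low ones, against an SD of 27.64 over the 160. The number in the library's title differed as well. When the livers were cut into 3 parts of nearly equal size by this number, the part with the lowest numbers held 43 low and 26 high livers (32.8% and 19.8% of the part). The part with the highest numbers held 16 low and 33 high livers (12.2% and 25.2%). The labels do not say what the title number stands for. Genes above 0 was a covariate of each fit described here unless stated, and the fit was repeated with the component and with the title number as further covariates. The part of depth in what follows was not tested.

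**Figure D2:**
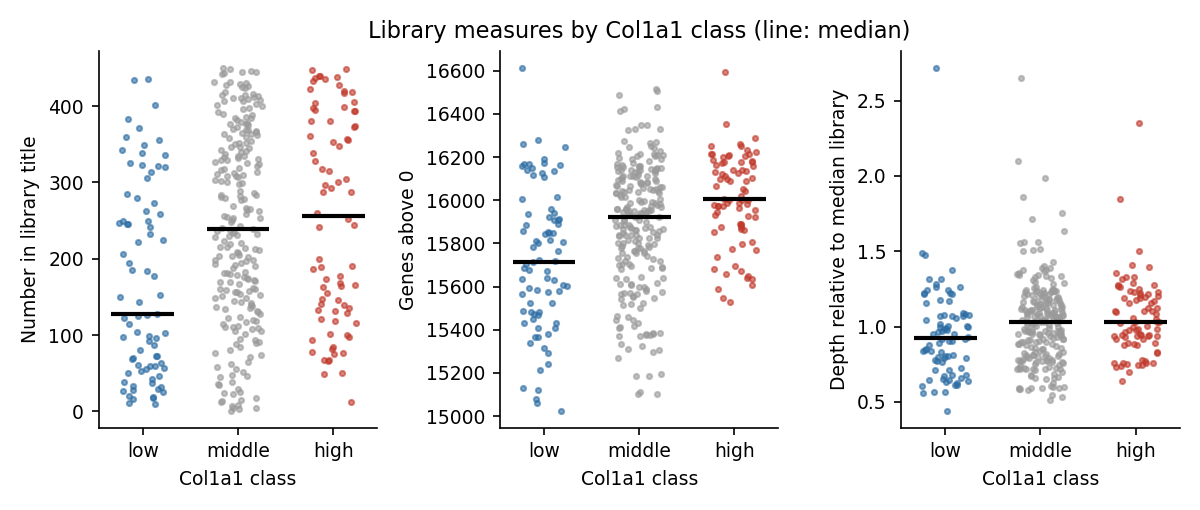
Title number, genes above 0 and relative depth (vertical axes) of each liver by Col1a1 class (horizontal axis), with a line at the median. Title number and genes above 0 are lower in the low livers, which have a median of 15715 genes above 0 against 16004.5 in the high livers, and all 3 measures overlap between classes.

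Libraries that share the first part of their identifier with another library did not sort into one class. There were 99 pairs of livers with a shared identifier. Both livers were high in 4 pairs and both low in 4, while 8 pairs had 1 high and 1 low liver. The remaining pairs had at least 1 liver in the middle class, 35 of them both. The 80 high livers came from 76 identifiers and the 80 low livers from 76, of which 7 identifiers occurred in both.

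Most genes differed little between high and low livers. Those called were more often higher over all genes tested (63.7% of calls), and more often lower among the abundant genes alone, at 10 FPKM or more in 10% of the livers (41.6% of 800 calls were higher). Of 12185 genes at 1 FPKM or more in 10% of the livers, 1121 were called higher and 640 lower in the high livers (limma, adjusted p under 0.05), which is 9.2% and 5.25% of the genes tested. The size was small: the called higher genes had a median difference of 0.18 on the log2(FPKM + 1) scale (quartiles 0.13 and 0.25), the lower ones of -0.13 (-0.17 and -0.11), and all genes tested of 0.01. A difference of 0.5 or more was reached by 29 genes called higher and by 2 called lower, together 0.254% of the genes tested. The higher genes were less abundant than the lower ones. They had a median level of 2.16 (log2), the lower genes one of 4.22, and all genes tested one of 3.0. In 0.936% of the genes the quartile ranges of the groups lay apart, and the high livers were above in all of these but 5. Since the livers were sorted by a gene of the same libraries, these counts describe which genes went along with Col1a1. They depended strongly on the covariate. Without genes above 0 in the model 7306 genes were called, and with the first principal component added 2891.

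The middle livers, which the sorting put in neither group, gave a test of the same relation in other libraries, not all with other identifiers. There each gene was fitted on log2(Col1a1 FPKM + 1), again with genes above 0 as covariate, and the slope is the change of the gene in log2 per unit of log2 in Col1a1. Col1a1 spans a narrow range in these livers, from 1.79 to 3.54 FPKM. The slope passed the threshold in 62 genes, 0.509% of those tested. It was positive in 57 of them (0.468% of the genes tested) and negative in 5 (0.041%). Of the 57 genes, 56 were among those called higher in the high livers (0.46% of the genes tested), while none of the 5 was among those called lower. The fit treats libraries as independent, although 35 pairs of middle livers share an identifier. In a further 27 pairs a middle liver shares it with a high liver, and in 21 with a low one. The middle livers are thus not fully independent of the high and low livers, and a block covers only pairs within a fit. With the identifier as a block, a choice made after the data were seen, 63 genes passed, among them 55 of the 57. With 1 library per identifier, which leaves fewer livers, 8 genes passed, and all 8 were among the 57.

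Over all genes called in the extremes, whether or not they passed in the middle livers, direction mostly carried over to the middle. Of the 1121 genes called higher in the high livers, 1025 (91.4%) had a positive slope in the middle livers, against 43.9% of all genes tested. Of the 640 called lower, 573 (89.5%) had a negative slope, against 56.1% of all genes. Genes move together and are not independent of each other, and some middle livers share an identifier with a high or low liver. These shares therefore carry no p-value. Among the genes called higher, larger differences more often passed in the middle livers. These were 0 of 79 genes with a difference under 0.1, 3 of 768 (0.391%) from 0.1 to 0.25, 28 genes (11.4%) from 0.25 to 0.5 and 25 of 29 (86.2%) at 0.5 or more. Among the genes called lower none passed, at any size.

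**Figure D3:**
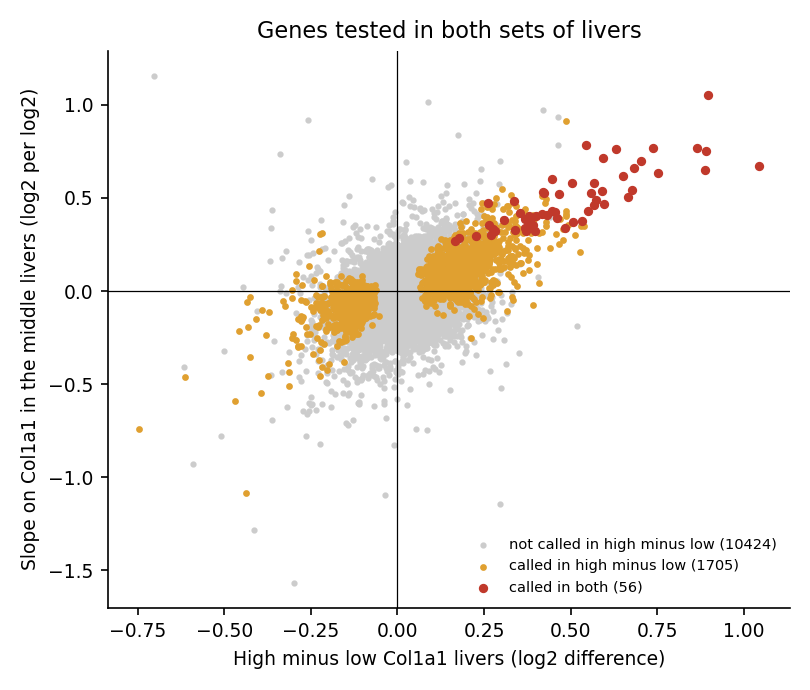
Each of the 12185 genes by its difference between high and low livers (horizontal axis, log2) and its slope on Col1a1 in the middle livers (vertical axis, log2 per log2). The 56 genes called in both lie in the upper right, with differences of 0.17 to 1.04 and slopes of 0.27 to 1.05, and no gene is called in both on the lower left.

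Most of the 56 genes called in both sets of livers did not pass with 1 library per identifier, where groups were ranked anew. The 56 genes were of low to moderate abundance, with a median level of 1.83 (log2). Their differences ranged from 0.17 to 1.04 with a median of 0.46. In 38 of them the quartile ranges of high and low livers lay apart. For each liver it was counted how many of the 56 stood above their own median over all livers kept. The low livers had 0 to 41 such genes with a median of 10, the middle livers 0 to 54 with a median of 30, and the high livers 15 to 56 with a median of 45.5. Most of the genes stood above their median in 70 of the 80 high livers and in 3 of the 80 low ones. The genes were chosen for following Col1a1, so the order of the classes is given by that choice, and what the count adds is how far single livers depart from it. In 9 high livers only a minority of the 56 genes stood above their median.

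**Figure D4:**
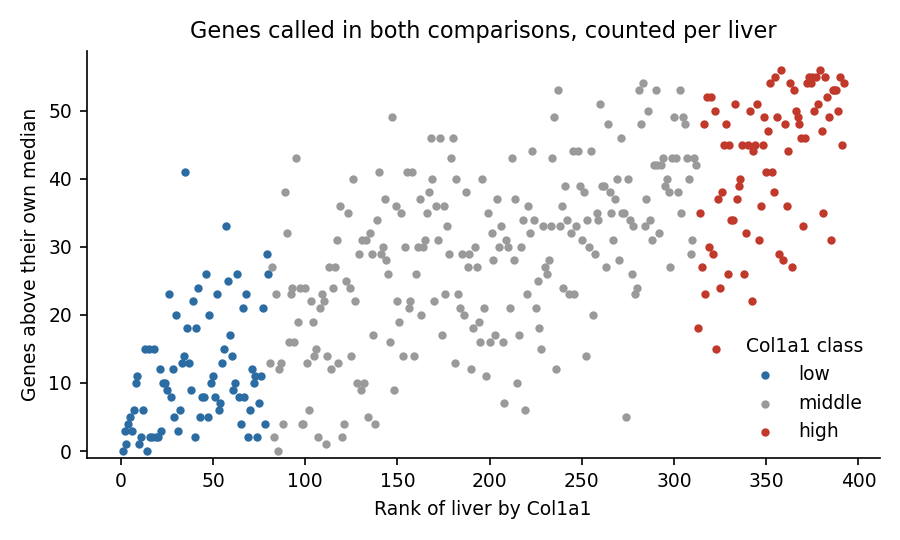
For each liver kept by rank of Col1a1 (horizontal axis), the number of the 56 genes that stood above their own median (vertical axis), coloured by class. The counts climb from a median of 10 in the low livers through 30 to 45.5 in the high livers, with wide scatter at each rank.

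Among the middle livers the 56 genes also went with each other. After genes above 0 was taken out, the correlation between 2 of them had a median of 0.272 over 1540 pairs (quartiles 0.157 and 0.382, middle livers), against 0.002 over all pairs of genes tested (quartiles -0.189 and 0.198). With Col1a1 taken out as well, the median for the 56 was 0.2. A positive sign is in part given by their choice. The share of pairs above 0.5 was 8.57%, close to the 6.87% over all genes tested, and it fell to 4.94% with Col1a1 taken out. All these values share libraries and depth and are a description.

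Over all livers kept, the correlation of a gene with Col1a1 reached 0.5 or more in 46 genes and -0.5 or less in none. Genes above 0 was not taken out of this correlation, unlike in the fits above. The 10 genes most like Col1a1 had an r of 0.61 to 0.75, and all 10 were among the 56. The 56 were called in these same livers, so this overlap is largely given by the choice. The most similar was ENSRNOG00000014166, with an r of 0.75. In the low livers it had a lowest value of 0.272 FPKM, a median of 0.868 and a highest of 2.13. In the middle livers the median was 1.46 FPKM (0.45 to 2.64), and in the high livers it was 1.95 (1.1 to 3.59). All 80 high livers lay above the median of the low livers, and 25 lay above the highest low liver. The difference was 0.67 on the log2(FPKM + 1) scale (SE 0.0447, n = 80 and 80), and in the middle livers the slope was 0.51 (SE 0.0754, limma adjusted p = 1.23e-06). The gene was picked by its r over livers that include the middle ones, so a small p-value there is in part given by the choice. The call of the slope held in 11 of 13 other fits, with slopes of 0.41 to 0.58 over the 13. Of these, 1 fit took in all livers kept, the high and low ones included (slope 0.58). Its call is given by the choice of the gene. The slope lost its call with 1 library per identifier (0.49, limma adjusted p = 0.0778) and among the livers with higher title numbers (0.44, limma adjusted p = 0.096). Both of these fits used livers between groups ranked anew, not the same middle livers.

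The gene with the largest difference among the 56 was ENSRNOG00000061379. Its level ran from 0.0707 to 4.43 FPKM in the low livers with a median of 0.973, from 0.139 to 7.04 in the middle livers with a median of 2.17, and from 0.601 to 12.6 in the high livers with a median of 4.12. The high livers were above the low median in 79 of 80 cases, and 36 were above the highest low liver. The difference was 1.04 (log2, SE 0.0878, n = 80 and 80), and the slope in the middle livers was 0.67 (SE 0.178, limma adjusted p = 0.0433). The gene was chosen among those that passed in the middle livers, so an adjusted p under 0.05 there is given by the choice. That slope lost its call in 7 of 13 other fits, among them the one with the identifier as a block (limma adjusted p = 0.0712), with a positive value of 0.64 to 0.96 in all 13. Of the 13, 1 fit took in all livers kept, the high and low ones included (slope 0.82), so its call is also given by the choice. ENSRNOG00000061379 spread more within each class than ENSRNOG00000014166, with an SD of 0.57 (log2) against 0.24 in the high livers.

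Among the genes called lower, the largest fall was that of ENSRNOG00000031211, an abundant gene with 12.3 to 185.5 FPKM in the low livers (median 47.1), 7.72 to 252.7 in the middle livers (median 37.4) and 5.93 to 163.6 in the high livers (median 32.4). The difference was -0.74 (log2, SE 0.174), and 59 of the 80 high livers were below the median of the low ones. Levels of 75 FPKM or more were found in 32 of 80 low livers (40%), 28.4% of the middle livers and 15 of 80 high livers (18.8%). This bound was set after the values were seen. The low livers had no value between those of 57.3 and 81.5 FPKM, and the high livers none between those of 60.5 and 83.3. The middle livers crossed the bound without a gap. How much of the difference goes with the share of livers above the bound was not tested. In the middle livers the slope was -0.74 (SE 0.36, limma adjusted p = 0.431). With 40 livers on each side, the difference between high and low livers was -0.68 and was not called, nor was it with 40 on each side within the livers of lower or of higher title number, at -0.83 and -0.52.

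ENSRNOG00000056847 had the next largest fall among the genes called, -0.61 (log2, SE 0.192). Its median was 50.6 FPKM in the low livers (4.01 to 163.2), 37.9 in the middle livers (3.25 to 148.2) and 23.4 in the high livers (4.97 to 171.7). The ranges overlapped almost fully, and 61 of the 80 high livers were below the low median. The slope in the middle livers was -0.46 (SE 0.362, limma adjusted p = 0.647). With 1 library per identifier and groups ranked anew, the difference between high and low livers was -0.44 and was not called. Nor was it called among the livers of higher title number, at -0.43. It was called with 40 against 40 (-0.86) and among the livers of lower title number (-0.89).

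**Figure D5:**
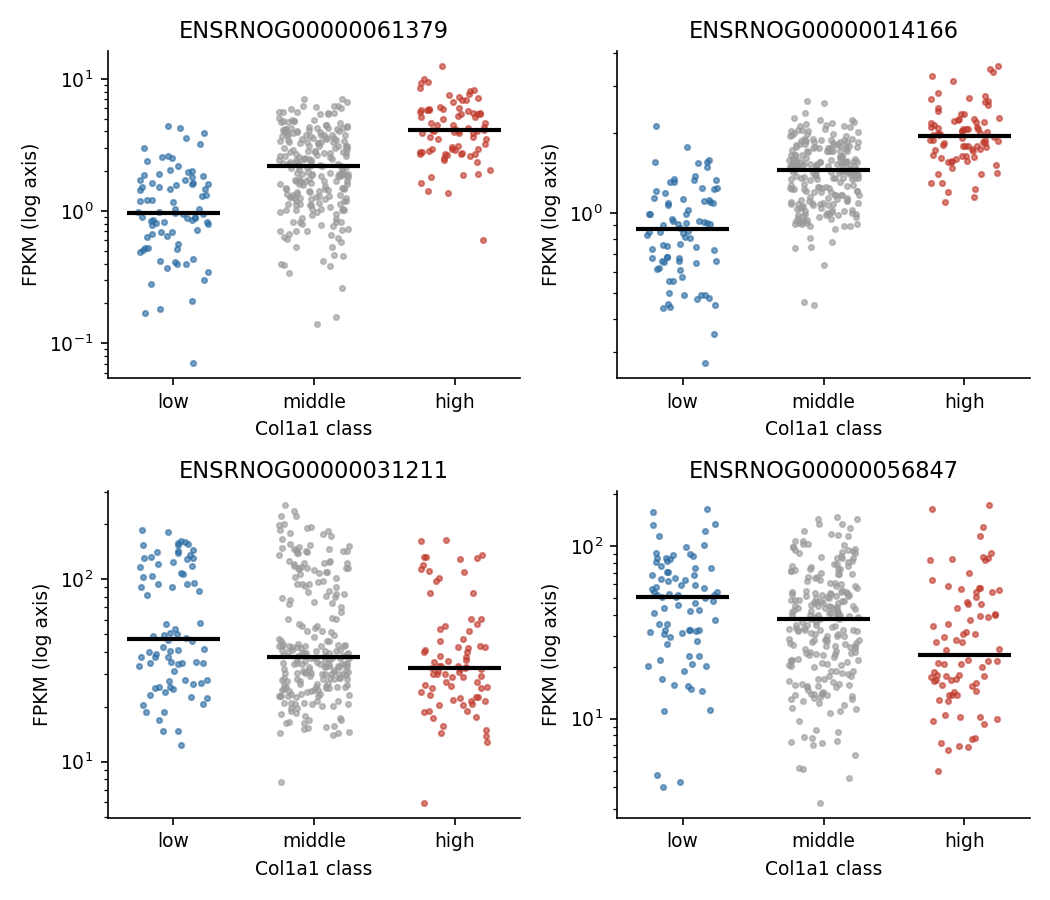
FPKM on a log axis (vertical) of 4 genes in each liver by Col1a1 class (horizontal), with a line at the median. The medians of ENSRNOG00000061379 and ENSRNOG00000014166 climb from low to high (0.973 to 4.12 and 0.868 to 1.95 FPKM), while ENSRNOG00000031211 and ENSRNOG00000056847 fall with wide overlap (47.1 to 32.4 and 50.6 to 23.4).

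Because low livers had smaller title numbers, the comparison was repeated among livers with numbers below the median and among those above it, with the 40 highest and the 40 lowest in Col1a1 ranked anew within each set. These groups take in livers that are middle livers over the whole range, and the livers between them are not the same as the middle livers above. Among the lower-numbered livers 3.29% of the genes were called, of which 73.4% were higher with high Col1a1. Among the higher-numbered livers 7.89% were called, of which 64.7% were higher. Of the 1121 genes higher over all livers, 23.9% were called higher among the lower-numbered livers and 44.2% among the higher-numbered ones. Over all genes tested, calls in either direction made up 3.29% and 7.89%. The groups of 40 share livers with the high and low groups that gave the 1121 genes, so this overlap is not a separate test. A spline of the title number as a further covariate gave 926 higher genes, 832 of them among the 1121. In the livers between the groups of 40, 23 genes passed among the lower-numbered ones, each with a positive slope. Among the higher-numbered livers between the groups 0 genes passed by limma, where 834 of 12123 had an unadjusted p under 0.05. There ENSRNOG00000014166 had a slope of 0.49 in the lower-numbered set (limma adjusted p = 0.0436), and ENSRNOG00000061379 had slopes of 0.8 and 0.87 in the lower- and higher-numbered set (limma adjusted p = 0.132 and 0.557). Whether the sets differ was not tested. With 1 library per identifier and groups ranked anew, 1479 genes were called between high and low livers, and with the identifier as a block 1792.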

How the data were processed

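The deposited table gives 1 value per gene and library with no unit in its header. The submitters' processing notes name STAR, Picard, featureCounts and DESeq2, without versions or roles. For genome build, annotation and strand, what was used is not given in the sources used here. Values deposited by the authors are read here as FPKM: within a gene and library 99.67% of values above 0 were whole multiples of a step (tolerance 0.01 of a read, 16406 genes), and step times median-ratio size factor was nearly constant over libraries (coefficient of variation 0.0106; 0.0391 for step times reads). In 2 libraries the step first found was that of 2 reads and was divided by 2. Depth is thus given here relative to other libraries, from the recovered step and not from a deposited total. Of 448 libraries in the labels, 430 were matched to columns by identifier and 18 were not analysed here; 1 column without a match was not used. The 392 livers kept were 80 high, 80 low and 232 middle livers, and the parts by title number held 131, 130 and 131.

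Fits used limma 3.58.1 in R 4.3.3 with a variance trend on log2(FPKM + 1), so differences of genes near 1 FPKM are understated, with Benjamini-Hochberg adjustment over all 12185 genes and a threshold of 0.05. They were tested on simulated data with noise independent between genes and between libraries. Such data lack the shared identifiers, the genes that move together and the sorting by a measured gene, so they do not bear on these. Groups, lists and the rule for naming genes were chosen with earlier results of these data known. That rule named the genes with the largest differences called in both fits, those most like Col1a1, and at most 2 identifiers in each direction for genes without a symbol. For lack of gene names, 40 lists of genes fixed by symbol, and a planned search of promoters, were not used here. Alternatives were other pseudocounts, filters, covariates, scalings, group sizes and sets of libraries (such as a minimum of 15500 genes above 0, or 1 library for each of 302 identifiers). Fits within the 196 livers below and the 196 above the median title number (groups of 40 ranked anew in each), and with the identifier as a block (limma's duplicateCorrelation), were added after the data were seen.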

Additional observations from a re-analysis of the deposited data

How the results depend on the processing

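The share of genes called between high and low livers, 14.5% (1761 genes), became 13.2% at 10 FPKM or more (800 of 6071 genes), 60% without the covariate, 23.7% with the first principal component and 7.13% with 40 against 40. It was 3.29% and 7.89% among lower- and higher-numbered livers, with groups of 40 ranked anew. The other 10 alternatives gave 1372 to 2394 genes. At 10 FPKM fewer genes are tested. In the remaining settings the cause of the change was not tested. The share with a difference of 0.5 or more, 0.254%, became 0.46% and 0.0492% with pseudocounts of 0.5 and 5, 0.198% at 10 FPKM, 2.09% without the covariate and 0.657% with 40 against 40. The 62 genes of the middle livers (0.509%) became 13 at 10 FPKM (0.214%), 22 with the higher minimum of genes above 0 (0.181%), 8 with 1 library per identifier (0.0657%), 2684 over all livers kept (22%), and 23 (0.188%) and 0 among lower- and higher-numbered livers. With a slope of 0.5 or more, 26 genes became 0.165%, 0.107% and 0.0493% of the genes tested in the first 3 of these, and 0 in the last. The counts of 22, 8, 23 and 0 genes are from livers between groups ranked anew. Higher genes made up 63.7% of calls between high and low livers, and 41.6% at 10 FPKM. The 4 genes given by identifier kept their sign in every alternative in which they were tested. ENSRNOG00000061379 and ENSRNOG00000014166 were not tested at 10 FPKM or more. With the identifier as a block, 1792 genes were called between high and low livers and 63 in the middle livers. No paired analysis was run: the labels give 1 group, and only 8 pairs with a shared identifier had 1 high and 1 low liver. Depth is given here only relative to other libraries. The reads behind genes near 1 FPKM are not given, which limits what can be said of them.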
